A study of Mus musculus with 92 samples.

Results

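The 81 genes described here code for mRNA decay factors and RNA helicases, and they were chosen by symbol from the 7886 genes of the counts table: 38 subunits of the decay machinery (names beginning Cnot, Exosc, Dcp, Xrn, Pan, Edc, Upf or Smg) and 43 helicases (Ddx and Dhx), with Ddx3x and Ddx3y left out. The annotation holds 92 symbols of this kind, and the other 11, such as Dcp1b, Exosc6 and Ddx58, were not analysed here. RNA was sequenced from single blastomeres of wild-type C57BL/6N mouse embryos by Smart-seq2, a full-length method without strand information, at the 8-cell stage. The sample titles of all groups carry the tag IVF (in vitro fertilization). As zygotes the embryos had been microinjected with Let7d (18 cells of 3 mouse ids), Let7e (20 cells of 4), mi699a-5p (21 cells of 4; the labels' own spelling) or NC, the negative control (22 cells of 3). The 2 let-7 agents were mimics of mature microRNAs, per the design text. Every group went through injection, and no uninjected embryos were among these samples.

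The mouse id was taken as the unit of replication, and counts were summed over its cells. No mouse id held more than 8 cells, but the labels do not say whether an id is an embryo, a litter or a donor, so p-values measure the spread between ids only. Cells held 1575609 to 4950404 reads and mouse ids 6329464 to 24037593. Of the 15 embryo markers listed, 13 had rows. Their mean levels ran from 8.24 CPM for Nlrp5 to 4938 CPM for Dppa3, an oocyte and early embryo gene, with Pou5f1 at 177.5 CPM. The lists of cumulus, sperm and blood markers had 0 rows. The table is named as filtered on CPM, so a missing row does not show that the RNA was absent. Ribosomal RNA took 5.93% ± 2.62 of reads in Let7d (n = 3), 8.72% ± 3.72 in Let7e (n = 4), 9.96% ± 1.98 in mi699a-5p (n = 4) and 13.3% ± 3.55 in NC (SD, n = 3), so it moved with the groups. The summed level of 3 Y-linked genes was near 0 in Let7d ids 2 and 3 and in mi699a-5p id 1, and high in most others, so Y-linked RNA was not balanced over the groups. In 8 cells ribosomal protein genes held over 7% of the reads without ribosomal RNA, against at most 6.55% in the other 73. They belonged to Let7e id 1 (2 cells), mi699a-5p ids 1 (2 cells) and 2 (1 cell), and each NC id (1 cell each), and to no Let7d id. Correlations between cells are therefore given with and without them, as are the fold changes that they moved most.

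Cytoplasmic mRNA decay usually begins when the poly(A) tail is shortened by the PAN2-PAN3 and CCR4-NOT complexes. The message is then either decapped by DCP2 and digested from the 5′ end by XRN1, or digested from the 3′ end by the RNA exosome, whereas nonsense-mediated decay, started by UPF1, removes messages that stop translation too early. MicroRNAs act through this machinery: a loaded Argonaute protein recruits CCR4-NOT through its adaptor TNRC6, and the helicase DDX6 and the decapping factors follow. DEAD-box (Ddx) and DEAH-box (Dhx) proteins use ATP to open RNA duplexes or remodel RNA and protein complexes, and most of those measured here serve splicing or ribosome assembly. In the mouse, maternal mRNA is cleared around the 2-cell stage, so 8-cell blastomeres run largely on transcripts of their own genome.

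The mature let-7 sequences of RefSeq (GRCm38.p6) are printed because they are what sets the Let7d and Let7e groups apart. Capitals mark the seed, bases 2 to 8 from the 5′ end.
mmu-let-7d-5p: aGAGGUAGuagguugcauaguu
mmu-let-7e-5p: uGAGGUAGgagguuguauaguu
They share the seed and differ at 3 positions, A1U, U9G and C16U, with the let-7d base first and positions counted from the 5′ end. These mature sequences lie at chr13:48536078-48536099 (minus strand) and chr17:17830366-17830387 (plus strand).

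Matches to this seed were sparse among the members. The letters CTACCTC, the reverse complement of the seed, were found in the longest annotated 3′ UTR of 5 of 80 members with such a UTR (6.25%), against 794 of 7597 genes (10.5%). The members' UTRs had a median length of 942 bases, against 1143 over all genes. The longer form CTACCTCA was present in 1 member (1.25%), the export helicase Ddx19b, against 3.69% of genes. The 6 matches are shown with their surroundings (transcript strand, 30 bases, the match in capitals), since these members are the ones let-7 could bind by this rule.
Ddx19b, chr8:111008118-111008147: ctgagtagagactacCTACCTCAttcggaa
Ddx19b, chr8:111004540-111004569: gaaatcaaagcaattCTACCTCAgcctcct
Dhx36, chr3:62469507-62469536: ttcctgttgtagtccCTACCTCtagcttga
Dhx57, chr17:80238713-80238742: ggcacaggagcgcgcCTACCTCccacggaa
Dhx8, chr11:101767310-101767339: tctgtactcagatttCTACCTCctggaaat
Edc3, chr9:57749239-57749268: ttctaccatcatttcCTACCTCcttgtcca
A match in an annotated UTR is a description of letters, not a shown site. The 5 members with a match had a median log2 fold change of -0.02 in Let7d and 0.04 in Let7e against NC, and the 75 without one had 0.16 and 0.11. Over all genes the medians with a match were 0.05 and 0.01, against 0.00 and 0.02 without one. Of the 5, 2 had a log2 fold change above 0 in Let7d and 3 in Let7e. The splicing helicase Dhx8 averaged 203.0 ± 19.99 CPM in Let7d (n = 3), 188.9 ± 50.3 in Let7e (n = 4) and 187.3 ± 51.9 in mi699a-5p (n = 4), against 131.5 ± 15.2 in NC (SD, n = 3), so mi699a-5p stood as high as the let-7 groups. Edc3 lay the other way, with means of 34.9 CPM in Let7d and 45.3 in Let7e, against 56.8 in NC. In the same order Dhx57 averaged 9.98, 17.8 and 16.1 CPM, Dhx36 49.8, 51.8 and 50.6, and Ddx19b 122.0, 104.8 and 114.3.

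Every decay step was represented in the blastomeres, at uneven levels. Levels between genes are given as CPM (counts scaled to the library's total) per kb of exon, averaged over the 14 ids. Exon length counts every exon base of any annotated transcript of a gene, so these levels depend on the annotation. The members' median was 16.4 CPM per kb, against 9.96 over all genes. Highest were the rRNA-processing helicase Ddx21 (134.0), the splicing cofactor Ddx5 (126.0), the exosome cap subunit Exosc3 (124.2), the CCR4-NOT subunit Cnot9 (123.3), the nucleolar Ddx56 (110.7) and the deadenylase Cnot8 (109.3). Lowest were the splicing helicase Ddx23 (1.91), the deadenylase Pan2 (2.09), the deadenylase Cnot6l (2.15) and the decapping enzyme Dcp2 (2.17) with its activator Dcp1a (2.47).

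**Figure D1:**
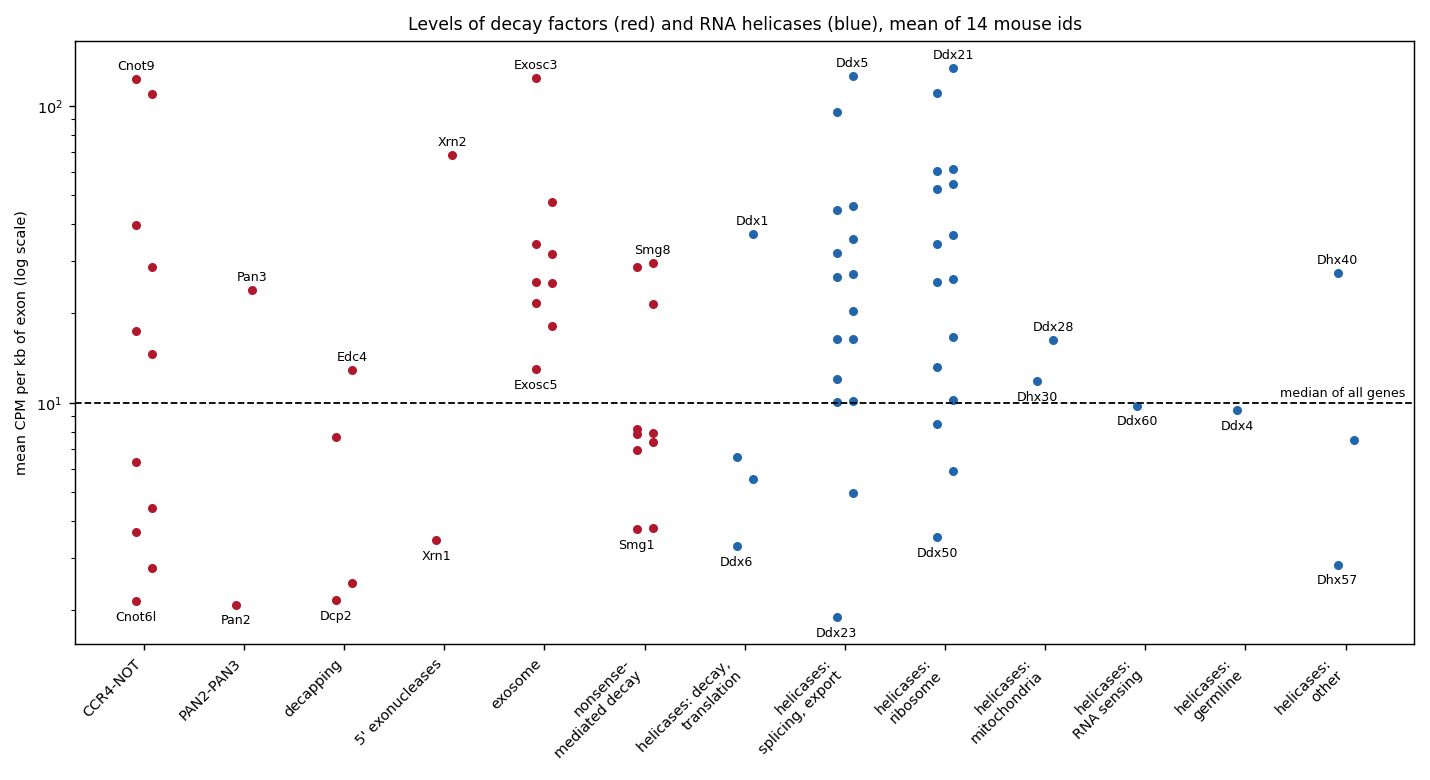
Mean level of each member in CPM per kb of exon (log axis), 1 point per gene, by role, with the highest and lowest of each role named and decay factors in red and helicases in blue. CCR4-NOT subunits span 2.15 to 123.3 CPM per kb, whereas all 9 exosome subunits lie above the median of all genes (9.96, dashed).

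The 9 exosome subunits lay between 12.99 (Exosc5) and 124.2 CPM per kb (Exosc3). The nuclear catalytic subunit Exosc10 stood at 34.2 CPM per kb, and the other 6 at 18.15 to 47.3. In CCR4-NOT the scaffold Cnot1 stood at 14.6 CPM per kb, Cnot2 at 39.6, Cnot3 at 6.31 and Cnot10 at 17.4, and the ubiquitin ligase Cnot4 (2.79), the deadenylase Cnot6 (3.67) and Cnot11 (4.41) were scarce. Among the decapping members, Edc4, the scaffold that joins DCP1 and DCP2, reached 12.9 CPM per kb and Edc3 7.65. Decapping genes outside the members ran from 3.23 (Patl1) to 94.0 CPM per kb (Lsm4). In nonsense-mediated decay the levels ran from 3.76 for the kinase Smg1 to 29.6 for its inhibitor Smg8, with the central helicase Upf1 at 7.94, its partner Upf2 at 8.15, Upf3a at 6.92 and Upf3b at 7.37. Among the other regulators and effectors were Smg5 (21.5), Smg6 (3.80) and Smg9 (7.86 CPM per kb).

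Among helicases tied to decay and translation, Ddx6, which acts in repression and decapping of microRNA targets, stood at 3.296 CPM per kb, below the median of all genes. Dhx36, which unwinds G-quadruplexes, stood at 5.54, the initiation helicase Dhx29 at 6.55 and Ddx1, which takes part in tRNA splicing, at 37.0 CPM per kb. The ribosome assembly class was led in CPM by Ddx21, Ddx56 and Ddx27 (54.7 CPM per kb), and the splicing and export class by Ddx5, Ddx39 (95.2) and Ddx46 (26.5). The mitochondrial Ddx28 and Dhx30 stood at 16.3 and 11.8, Ddx60 at 9.79 and the germline marker Ddx4 (Vasa) at 9.44 CPM per kb.

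Several pairs of related enzymes differed in level per kb. The nuclear 5′ exonuclease Xrn2 exceeded the cytoplasmic Xrn1 per kb in 14 of 14 ids, with a ratio of mean levels of 19.9. In CPM their means were 273.0 and 64.1, with exon lengths of 3981 and 18585 bases, so part of that ratio comes from length. Pan3, the regulatory partner, exceeded the deadenylase Pan2 in 14 of 14 ids, with a ratio of 11.5. Of the paralogous deadenylases, Cnot7 was below Cnot8 per kb in every one of the 14 ids, with a ratio of 0.263. In CPM their means were 167.0 and 288.0. There Cnot7 exceeded Cnot8 in Let7e ids 2 (272.5 against 271.7) and 3 (219.5 against 151.7). Ddx5 exceeded its paralog Ddx17 in 14 of 14 ids, with a ratio of 10.4, and Ddx39b was below Ddx39 in all 14, with a ratio of 0.469. How reads that match both paralogs were counted is not given in the sources used here. The spans of Cnot7 and Vps37a, Cnot9 and Usp37, Exosc3 and Dcaf10, Exosc5 and Tmem91, Cnot3 and Leng1, and Edc3 and Clk3 overlap on opposite strands. So do, among others, those of Exosc9 and Ccna2 (863 bases) and of Ddx28 and Dus2 (2262 bases). All of these genes were counted. Where exons of both genes share a stretch, its reads cannot be told apart without strand. Overlap of exons was not checked.

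No member passed the test for a change with any injection. edgeR's quasi-likelihood test with Benjamini-Hochberg adjustment over all 7886 genes called 0 of the 81 members in Let7d, Let7e or mi699a-5p against NC, in Let7e against Let7d, in the let-7 mean (both let-7 groups averaged) against NC, or in a test of any difference among the 4 groups. The same test called 0.0127% of all genes (1 gene) in Let7d against NC and in the let-7 mean against NC, and 0% in the others. DESeq2 and limma also called 0 members in all 6 tests. Without the 8 cells of high ribosomal protein share edgeR called 0 members as well, and with ribosomal RNA left out likewise. The 95% interval of the log2 fold change lay within a 2-fold change either way for 44 members when Let7d was set against NC, for 46 with Let7e and for 43 with mi699a-5p. For the other members the interval reached past a 2-fold change, so a change of that size was not excluded. Over all genes the interval lay within a 2-fold change for 29.25%, 35.4% and 32.87% in the same comparisons.

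**Figure D2:**
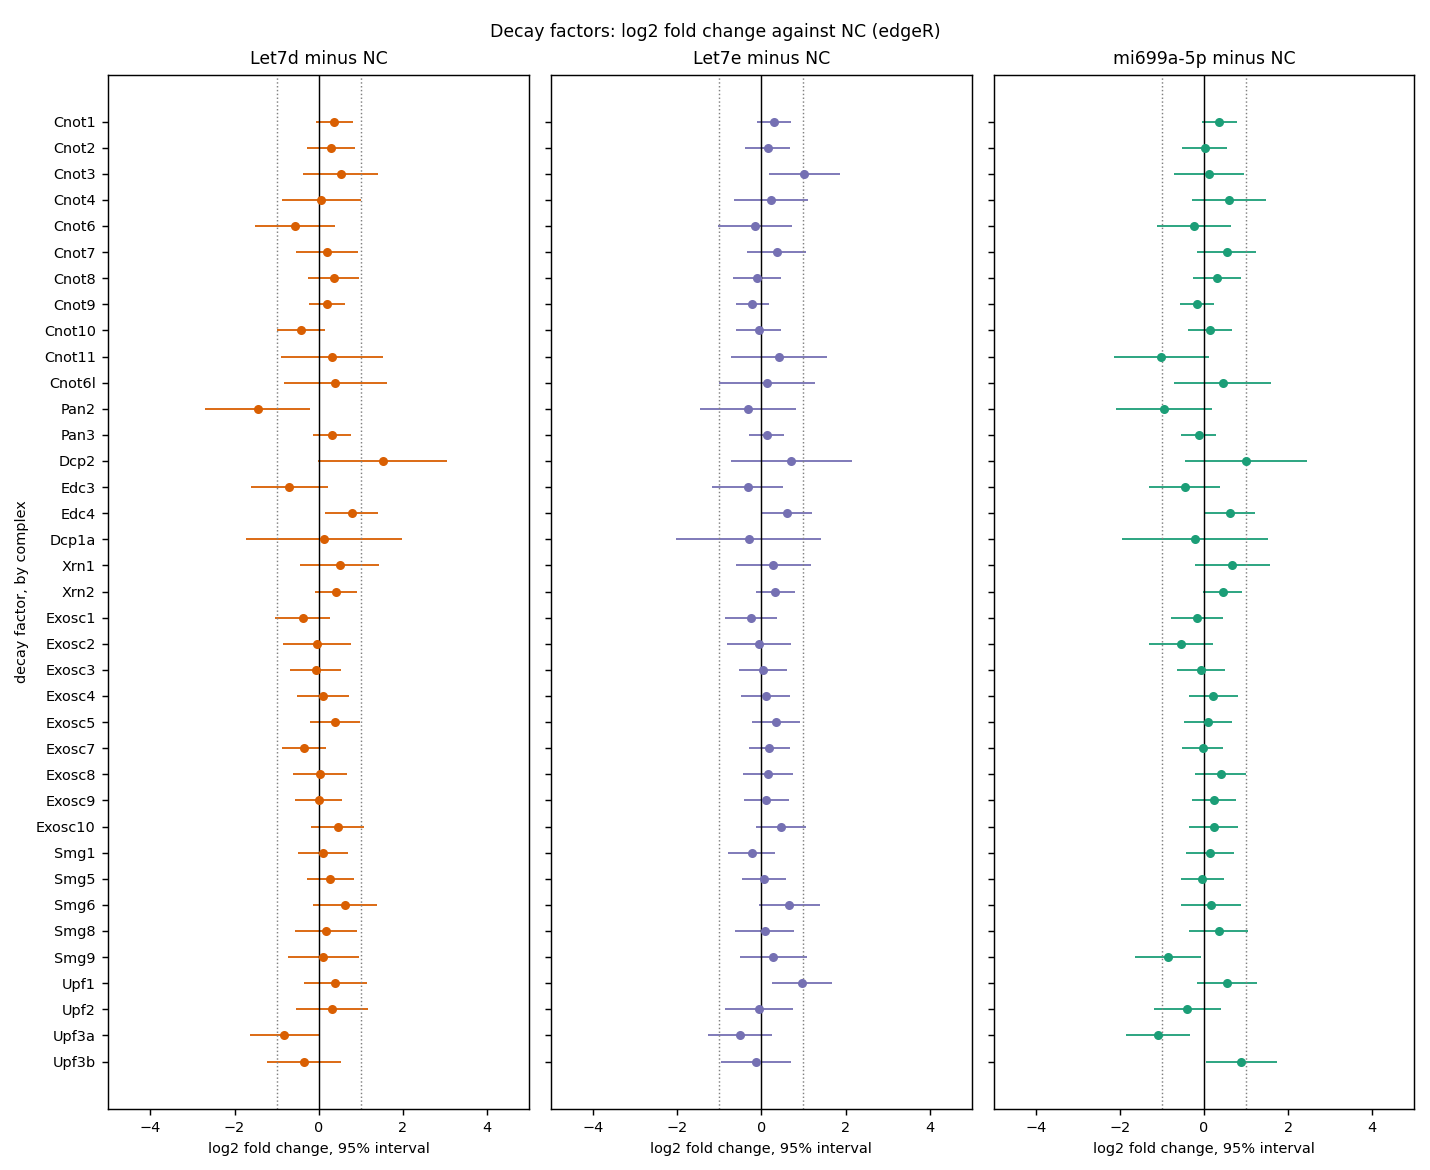
Log2 fold change of decay factors (down the page, by complex) in Let7d, Let7e and mi699a-5p against NC, with 95% intervals from edgeR and dotted lines at a 2-fold change. The intervals are narrow for abundant genes such as Cnot1 and Cnot9 and wide for scarce ones such as Dcp1a and Dcp2, and no member passed adjusted p 0.05.

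In Let7d against NC, 4 members had an unadjusted p under 0.05 in edgeR, where 4.69% of all genes did, so the members' share was near the background. By the same count DESeq2 gave 5 and limma 4. Edc4 (chr8:105880881-105894908, GRCm38) had 66.0, 78.0 and 108.1 CPM in Let7d ids, against 48.0, 47.9 and 50.9 CPM in NC ids. All 3 Let7d ids lay above all 3 NC ids. The log2 fold change was 0.78 ± 0.30 (SE; edgeR p = 0.0176, adjusted p = 0.9855). Pan2 (chr10:128303335-128321358) had 5.25, 12.3 and 11.5 CPM in Let7d ids, against 25.1, 20.6 and 33.8 CPM in NC ids. Its groups did not overlap either, with Let7d low, and the log2 fold change was -1.45 ± 0.59 (edgeR p = 0.0253, adjusted p = 0.9855). Its partner Pan3 lay the other way, with 405.1, 425.1 and 437.5 CPM in Let7d ids, against 341.2, 394.6 and 289.5 CPM in NC ids. Dhx8 (chr11:101732919-101767358), which releases spliced mRNA from the spliceosome, had 180.0, 213.0 and 216.1 CPM in Let7d ids, against 137.3, 143.0 and 114.3 CPM in NC ids. Its log2 fold change was 0.63 ± 0.27 (edgeR p = 0.0307, adjusted p = 0.9889). The nonsense-mediated decay factor Upf3a had 24.0, 30.5 and 48.5 CPM in Let7d ids, against 46.0, 77.5 and 58.0 CPM in NC ids, with 1 Let7d id among the NC values (log2 fold change -0.82 ± 0.39, edgeR p = 0.0492). Dcp2, the decapping enzyme, had 37.8, 26.5 and 22.7 CPM in Let7d ids, against 13.8, 15.4 and 1.053 CPM in NC ids. These groups did not overlap, with NC id 3 far below the other NC ids (log2 fold change 1.52 ± 0.73, edgeR p = 0.0526, and 0.99 without NC id 3).

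Across the members, 11 had all Let7d ids above all NC ids and 4 had them below. Over all genes these shares were 6.00% above and 5.96% below. The 11 were Cnot1, Pan3, Dcp2, Edc4, Exosc5, Smg6, Ddx27, Ddx41, Ddx42, Ddx60 and Dhx8, and the 4 were Cnot10, Pan2, Exosc7 and Dhx57. The median log2 fold change of the members was 0.14, against 0.01 over all genes, and by complex it was 0.30 for CCR4-NOT, 0.00 for the exosome and 0.15 for nonsense-mediated decay. Above 0 lay 54 of the 81 members and 4021 of all 7886 genes. An id's median deviation over the members (log2 CPM, from each gene's mean over ids) had an SD of 0.097 within groups. The ribosome assembly helicases lay above 0 in 13 of 16 cases (median 0.23) and the splicing and export helicases in 11 of 16 (median 0.07). Ddx6 had a log2 fold change of -0.60 in Let7d against NC (95% interval -1.82 to 0.62), 0.16 for Let7e (-0.98 to 1.303) and -0.35 for mi699a-5p (-1.49 to 0.78). The decay factors together took 0.500%, 0.486% and 0.505% of reads without ribosomal RNA in Let7d ids, against 0.443%, 0.454% and 0.442% in NC ids. The helicases overlapped between the groups, at 0.746%, 0.662% and 0.766% in Let7d ids, against 0.608%, 0.740% and 0.621% in NC ids. In Let7e the decay factors took 0.439% to 0.472% and in mi699a-5p 0.456% to 0.474%. Without the 8 cells the ranges were 0.439% to 0.481% in Let7e, 0.465% to 0.488% in mi699a-5p and 0.44% to 0.453% in NC, with Let7d as before. The 3 comparisons with NC share the same NC ids, and the lower ribosomal RNA share of Let7d moved with this difference. Its part beyond the removal of those reads was not tested.

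In Let7e against NC, 3 members had an unadjusted p under 0.05 in edgeR, where 4.02% of all genes did (DESeq2 5, limma 1). Upf1 (chr8:70331525-70353278) had 45.5, 50.6, 44.9 and 54.3 CPM in Let7e ids, against 24.98, 25.2 and 24.5 CPM in NC ids. The groups did not overlap, and the NC ids lay close to each other. The log2 fold change was 0.97 ± 0.34 (edgeR p = 0.0104, adjusted p = 0.9993). Upf1 had 38.2, 41.6 and 18.3 CPM in Let7d ids and 31.2, 41.3, 39.0 and 33.5 CPM in mi699a-5p ids. All 4 mi699a-5p ids lay above NC too, whereas Let7d id 3 lay below it. Cnot3 (chr7:3645268-3661109), a structural CCR4-NOT subunit, had 43.5, 52.2, 113.2 and 50.2 CPM in Let7e ids, against 32.5, 22.1 and 40.8 CPM in NC ids. Its log2 fold change of 1.02 ± 0.40 (edgeR p = 0.0210, adjusted p = 0.9993) was 0.61 without Let7e id 3, which stood far above the others. Edc4 had 50.3, 84.3, 85.7 and 77.9 CPM in Let7e ids, so that 3 of 4 lay above the NC ids by a wide margin, with a log2 fold change of 0.61 ± 0.28 (edgeR p = 0.0448, adjusted p = 0.9993). All Let7e ids lay above all NC ids for 8 members (Upf1, Cnot3, Smg6, Dhx8, Ddx21, Ddx60, Dhx30 and Dhx40) and below for 0, against 2.78% and 2.84% of all genes. By class, the log2 fold change lay above 0 for 13 of 16 splicing and export helicases (median 0.18), 7 of 16 ribosome assembly helicases (median -0.01), 7 of 9 exosome subunits (median 0.12) and 7 of 11 CCR4-NOT subunits (median 0.15). It lay above 0 for 53 of the 81 members (median 0.11) and 4096 of all 7886 genes (median 0.02).

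**Figure D3:**
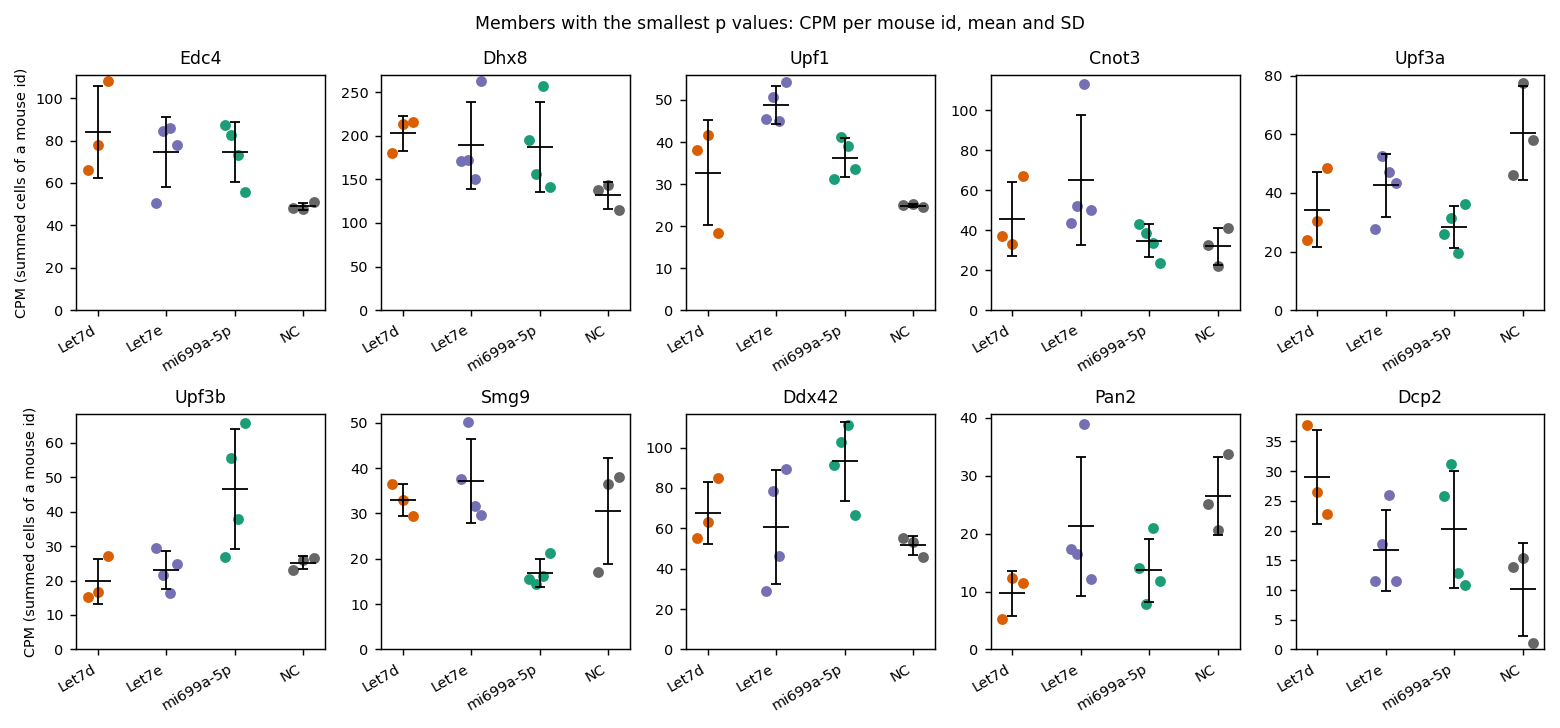
CPM in each mouse id (points) with the group mean and SD (bars) for 10 members with small p-values, groups from left to right Let7d, Let7e, mi699a-5p and NC. Upf1 lies at 24.5 to 25.2 CPM in NC and at 44.9 to 54.3 in Let7e, and Smg9 at 14.5 to 21.4 CPM in mi699a-5p with 1 NC id at 17.0, among the mi699a-5p values.

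Averaged over both let-7 groups against NC, Edc4, Dhx8 and Upf1 had the smallest p-values. By edgeR 3 members had an unadjusted p under 0.05 in edgeR, where 3.89% of all genes did (DESeq2 6, limma 6). The log2 fold change was 0.69 ± 0.26 for Edc4 (edgeR p = 0.0159, adjusted p = 0.9986), 0.57 ± 0.23 for Dhx8 (p = 0.0235) and 0.68 ± 0.31 for Upf1 (p = 0.0414). All 7 let-7 ids lay above all NC ids for 3 members, against 0.989% of all genes, and below for 0, against 0.786%. These were Dhx8, the interferon-induced Ddx60 and the nonsense-mediated decay endonuclease Smg6. Smg6 had 37.4, 44.0 and 31.1 CPM in Let7d ids and 37.6, 37.9, 35.6 and 43.4 CPM in Let7e ids, against 18.8, 29.6 and 24.7 CPM in NC ids. Ddx60 had 165.5, 82.0 and 85.1 CPM in Let7d ids and 79.1, 97.7, 117.9 and 121.3 CPM in Let7e ids, against 78.3, 54.8 and 63.3 CPM in NC ids.

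The 2 let-7 sequences differ by 3 bases outside the seed. Between the 2 let-7 groups, 4 members had an unadjusted p under 0.05 in edgeR, where 5.39% of all genes did (DESeq2 5, limma 5). By edgeR the count was 0 with the Y-linked level in the model. It was 2 without Let7d id 1, 2 without id 2 and 0 without id 3. Ids 2 and 3 had little Y-linked RNA and id 1 had much, so these omissions did not follow the Y-linked level. Ddx17, a splicing and microprocessor cofactor, had 86.6, 122.4, 128.7 and 139.4 CPM in Let7e ids, against 104.4, 62.5 and 34.8 CPM in Let7d ids. The groups overlapped, and the log2 fold change was 0.83 ± 0.34 (edgeR p = 0.0243, adjusted p = 0.924). It was 0.38 with the Y-linked level in the model, 0.51 without Let7d id 3 and 1.29 without Let7d id 1. Cnot9, which binds TNRC6 proteins, had 421.6, 468.8, 460.7 and 336.9 CPM in Let7e ids, against 558.3, 503.0 and 632.2 CPM in Let7d ids. All Let7e ids lay below all Let7d ids, and the log2 fold change was -0.42 ± 0.19 (edgeR p = 0.0396, adjusted p = 0.924). It was -0.29 without the 8 cells. The others were the nucleolar Ddx24 (log2 fold change -0.66 ± 0.27, edgeR p = 0.0266) and Exosc7 (0.54 ± 0.23, edgeR p = 0.0331), and for both genes the ids of the groups overlapped. For Ddx24 the value was -0.43 with the Y-linked level in the model and -0.41 without Let7d id 3. For Exosc7 it was 0.30 without the 8 cells, 0.36 without Let7e id 1 and 0.32 by limma. Without overlap between these groups were 1 member above (Upf1) and 2 below (Cnot9 and Ddx18), against 3.12% and 2.95% of all genes. The median of the members' log2 fold changes was -0.01.

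In mi699a-5p against NC, 6 members had an unadjusted p under 0.05 in edgeR, where 5.50% of all genes did (DESeq2 6, limma 5). They were Upf3a, Upf3b, Smg9, Ddx42, Ddx21 and Edc4. The nonsense-mediated decay list as a whole had 5 of 10 log2 fold changes above 0 and a median of 0.05. Upf3a (chr8:13785615-13799193), which joins UPF2 to the exon junction complex, had 26.1, 31.6, 19.5 and 36.3 CPM in mi699a-5p ids, against 46.0, 77.5 and 58.0 CPM in NC ids. All mi699a-5p ids lay below all NC ids. The log2 fold change was -1.09 ± 0.36 (edgeR p = 0.00697, adjusted p = 0.8578), and -1.32 without the 8 cells. Its X-linked paralog Upf3b (chrX:37091678-37110322) lay the other way, with 26.8, 55.5, 38.0 and 65.8 CPM in mi699a-5p ids, against 23.03, 25.9 and 26.6 CPM in NC ids. The groups did not overlap, though the lowest mi699a-5p id came close to NC. The log2 fold change was 0.89 ± 0.40 (edgeR p = 0.0408, adjusted p = 0.8711), and 0.85 (p = 0.0622) in the edgeR fit that also took the level of Y-linked genes into account. Per kb, the ratio of Upf3b to Upf3a was 1.51 to 2.86 in mi699a-5p ids, 0.807 to 0.935 in Let7d ids, 0.509 to 1.56 in Let7e ids and 0.489 to 0.735 in NC ids.

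Smg9, a regulator of the SMG1 kinase, had 15.5, 14.5, 16.2 and 21.4 CPM in mi699a-5p ids, against 17.0, 36.5 and 38.1 CPM in NC ids. NC id 1 lay among the mi699a-5p ids, and the log2 fold change of -0.85 ± 0.38 (edgeR p = 0.0360, adjusted p = 0.8711) was -0.53 without the 8 cells. Ddx42, a helicase of the U2 snRNP, had 91.5, 103.0, 111.3 and 66.7 CPM in mi699a-5p ids, against 55.2, 53.4 and 46.0 CPM in NC ids, with no overlap and a log2 fold change of 0.85 ± 0.35 (edgeR p = 0.0255, adjusted p = 0.8658). Edc4 was high here too, with 87.1, 82.7, 73.3 and 55.5 CPM in mi699a-5p ids and a log2 fold change of 0.61 ± 0.28 (edgeR p = 0.0440, adjusted p = 0.8711). The 3 NC ids are shared by all 3 fold changes of Edc4. Ddx21 had 780.8, 762.5, 851.7 and 595.2 CPM in mi699a-5p ids, against 554.5, 637.0 and 501.8 CPM in NC ids, with mi699a-5p id 4 among the NC values (log2 fold change 0.41 ± 0.18, edgeR p = 0.0391, adjusted p = 0.8711). Over the members, all mi699a-5p ids lay above all NC ids for 5 (Cnot1, Edc4, Upf1, Upf3b and Ddx42) and below for 4 (Cnot11, Exosc2, Upf3a and Ddx50), against 4.51% and 3.87% of all genes. In the test of any difference among the 4 groups, 3 members had an unadjusted p under 0.05 in edgeR, where 5.59% of all genes did (DESeq2 6, limma 2). They were Upf3b (p = 0.0172), Smg9 (p = 0.0310) and Upf3a (p = 0.0403), each with an adjusted edgeR p of 0.8868, and the count was 1 without mi699a-5p id 1, 0 without id 2 and 1 without id 3.

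Genes that work beside the members did not pass the test either. Of 18 further deadenylation genes, 11 decapping, 14 exosome, 15 nonsense-mediated decay and 9 helicases of other names, edgeR called 0 in every comparison. The smallest p belonged to Pabpc4, a poly(A)-binding protein, with 112.7, 122.2, 137.0 and 135.0 CPM in mi699a-5p ids, against 195.6, 169.2 and 251.0 CPM in NC ids (log2 fold change -0.70 ± 0.20, edgeR p = 0.00310, adjusted p = 0.8358). Next was Dis3, the catalytic subunit that joins the exosome ring, with 130.5, 108.8 and 97.2 CPM in Let7d ids, against 47.2, 66.5 and 42.5 CPM in NC ids (log2 fold change 1.11 ± 0.36, edgeR p = 0.00655, adjusted p = 0.8859). The groups of ids did not overlap for either gene. The 9 exosome subunits among the members had a median log2 fold change of 0.00 in Let7d against NC. Mov10, a helicase bound to Argonaute complexes, had 69.3, 115.2 and 119.8 CPM in Let7d ids, against 35.9, 69.8 and 46.0 CPM in NC ids, with a small overlap (log2 fold change 1.004 ± 0.39, edgeR p = 0.0193, adjusted p = 0.9855). In Let7e against NC the smallest p-values belonged to Wdr61 of the SKI complex (-0.53 ± 0.21, edgeR p = 0.0222) and Noct, a circadian relative of the deadenylases (1.01 ± 0.41, edgeR p = 0.0250). In Let7e against Let7d they belonged to the nuclear exosome cofactor Zfc3h1 (-1.09 ± 0.41, edgeR p = 0.0168) and Dis3 (-0.87 ± 0.33, edgeR p = 0.0170), and in mi699a-5p after Pabpc4 to the spliceosomal helicase Aqr (0.86 ± 0.32, edgeR p = 0.0158).

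Between blastomeres of the same mouse id the members varied less than most genes, and they were also more abundant than most. Their median coefficient of variation (CV) within ids was 54.5%, against 75.8% over all genes, and relative to genes of like mean 46 members lay below the trend and 34 above. A read was found in all 81 cells for 47 members (58.0%), against 34.1% of all genes, and for 46 when every cell was thinned to 1575609 reads. Cells held 72 to 81 of the 81 members. Mouse ids accounted for a median of 15.4% of the members' variance in log2 CPM within groups, against 15.8% over all genes, where the number of ids alone gives 13.0%.

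**Figure D4:**
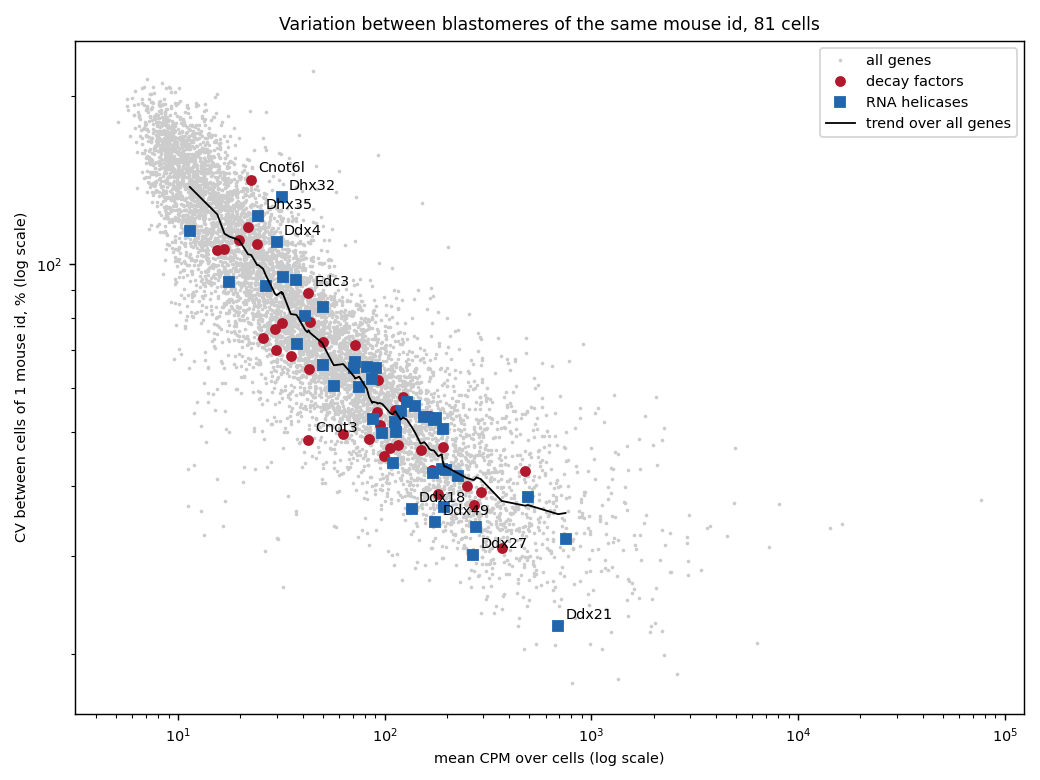
CV between cells of the same mouse id against mean CPM (both log axes) for all genes (grey), decay factors (red) and helicases (blue), with the trend of all genes as a line. Most members follow the trend, with Ddx21 (22.4%) and Cnot3 (48.4%) farthest below it and Dhx32 and Cnot6l farthest above.

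Relative to the trend the steadiest members were Ddx21 (CV 22.4%, where genes of like mean had 35.6%), Cnot3 (48.4% against 76.1%), Ddx18 (36.4% against 51.1%), Ddx27 and Ddx49. The ribosome assembly helicases as a class lay near the trend, with 10 of 16 below it and Ddx54, Ddx24 and Ddx31 among the 6 above. The most variable were Dhx32 (132% against 89.2%), Cnot6l (142% against 104%), the germline helicase Ddx4 (110% against 87.9%), Dhx35 and Edc3. Cnot6l was detected in 63 of 81 cells and Dhx32 in 57. Nonsense-mediated decay factors lay below the trend in 8 of 10 cases, whereas of the 4 decapping genes 0 did and 3 lay above it.

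Some members varied together from cell to cell. The values below are correlations of log2 CPM as deviations from the mean of the mouse id, over 81 cells and the 55 members with a mean of at least 50 CPM. The cells of an id share their source, and all values of a cell share 1 total, so they are descriptions. The median over pairs of members was 0.06, against 0.03 over all genes, with 0.19 within CCR4-NOT and 0.17 within the exosome. Over the 73 cells without the 8 described above it was 0.02 for all members, 0.02 within CCR4-NOT and 0.13 within the exosome. The closest pair was Ddx20, a subunit of the SMN complex also known as Gemin3, and the nucleolar Ddx54, at r = 0.73, and next came Ddx20 and Cnot2 at 0.70. Exosc3 and Ddx54 were the most opposed, at -0.66. For these 3 pairs the values without the 8 cells were 0.39, 0.50 and -0.26.

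In those 8 cells Ddx54 had a median of 21.2 CPM (range 8.00 to 41.7), against 168.1 CPM (44.2 to 342.0) in the other 73. Ddx20 had a median of 30.6 CPM there, against 181.7 in the others, and Cnot2 52.6 CPM, against 169.9. Exosc3 went the other way, with 330.4 CPM (202.1 to 506.7), against 148.4 (60.3 to 240.6), and so did Exosc5, with 117.1 CPM, against 70.5. The medians of Exosc1, Exosc2, Exosc4, Exosc7 and Exosc8 were higher there too. Those of Exosc9 and Exosc10 were lower, at 62.6 and 53.7 CPM, against 97.2 and 118.2. The embryo marker Dppa3 had a median of 9458 CPM in the 8 cells, against 4063 in the others, and Pou5f1 166.6 against 163.8. These cells were picked out by their ribosomal protein share, and the values are not tested.

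**Figure D5:**
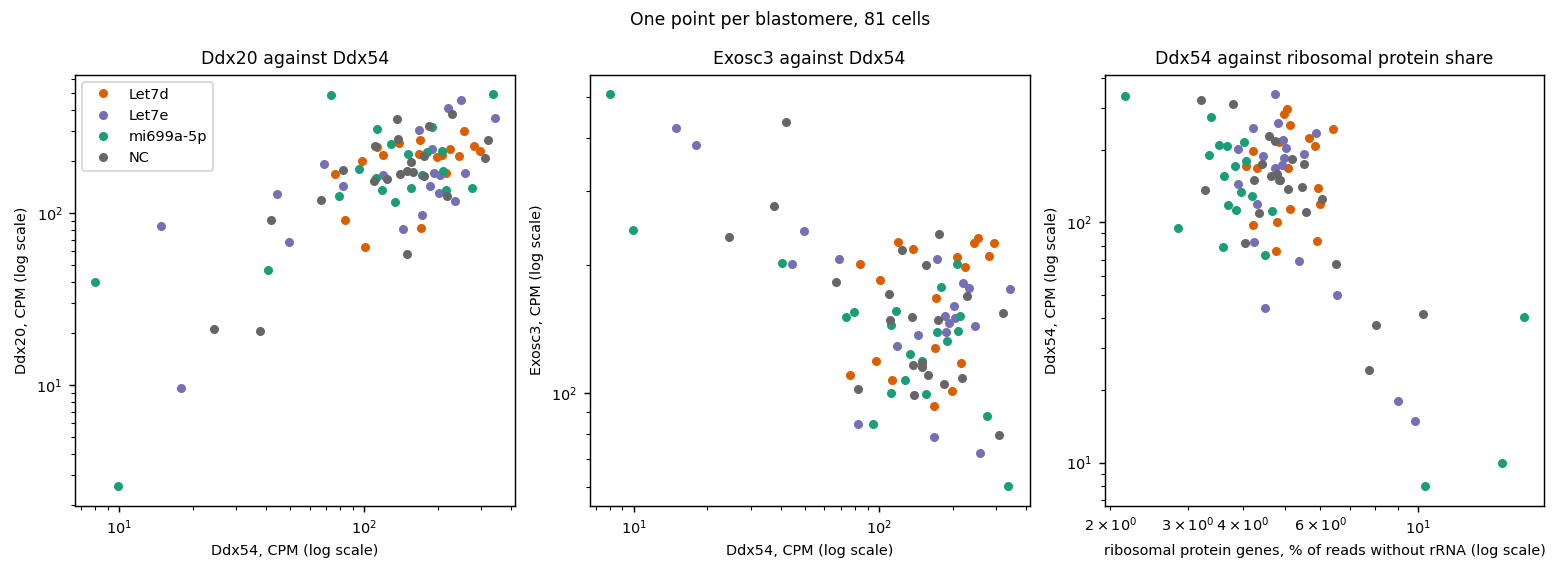
Each point is 1 of 81 blastomeres (colours: Let7d, Let7e, mi699a-5p, NC; all axes log). Ddx20 and Exosc3 (CPM) are plotted against Ddx54 (CPM), and Ddx54 against the share of ribosomal protein reads (%); cells of high share have Ddx54 below 42 CPM and come from Let7e, mi699a-5p and NC, and none from Let7d.

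Across all 81 cells the ribosomal protein share, 2.16% to 17.5% of reads without ribosomal RNA, separated the decay complexes by sign. Of the 9 exosome subunits, 7 correlated positively with it (median r = 0.36, highest Exosc3 at 0.66 and Exosc1 at 0.43), whereas the 6 CCR4-NOT subunits measured at this level all correlated negatively (median -0.45, lowest Cnot2 at -0.63 and Cnot7 at -0.56). Over all genes 67.2% correlated negatively. Splicing and export helicases were negative in 12 of 13 cases (median -0.46). Without the 8 cells the exosome was positive in 8 of 9 cases (median 0.25), whereas CCR4-NOT was negative in 5 of 6 but close to 0 (median -0.08), and the splicing and export helicases were negative in 11 of 13 (median -0.16). Correlations with read depth were -0.03 for Ddx54 and 0.12 for Exosc3, and with the ribosomal RNA share 0.02 and -0.07. Over the 18 Let7d cells, none of them among the 8, the correlation with the ribosomal protein share was 0.68 for Exosc3 and 0.01 for Ddx54. For Ddx54 it was -0.79 in Let7e, -0.84 in mi699a-5p and -0.79 in NC cells, and -0.41 over the 73 cells without the 8. For Exosc3 it was 0.74 in cells of Let7e, 0.72 in those of mi699a-5p and 0.70 in those of NC. What sets the ribosomal protein share of a cell was not tested.

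The members' promoters (RefSeq, GRCm38.p6, 250 bases before to 50 after the start, both strands searched) were set beside those of all genes, with 71 members matched. The ETS letters CCGGAAG were present in 33.8% of member promoters, against 23.3% of 6219 genes, the NRF1 letters GCATGCGC in 14.1%, against 6.56%, and TATAAA in 1.41%, against 6.19%. CCAAT was present in 43.7%, against 39.7%, and the YY1 letters AAGATGGCG in 5.63%, against 4.18%. The median GC content was 61.7%, against 61.3%. These are counts of letters, with no test.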

How the data were processed

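Smart-seq2 libraries of single blastomeres were aligned with STAR to GRCm38.p6, per the submitters' processing notes; the counter and its settings are not given in the sources used here. The authors deposited whole-number read counts per gene, unnormalized, in a table named as filtered on CPM (threshold not given in the sources used here). Their RPKM table was not used here. Of 92 labelled cells, 82 had a column and 10 were not analysed here. Columns of 1 pair of Let7d cells differed by little more than sampling noise (chi-square per gene 1.051, against 28.72 for the next closest pair) and were summed as 1 cell, leaving 81 cells. Gene IDs were matched to GENCODE M21 symbols (7878 of 7886). Counts were summed per mouse id and fitted in 1 model of 14 ids with edgeR 4.0.16 (R 4.3.3; TMM, filterByExpr, which removed 0 genes, quasi-likelihood F test, two-sided, adjusted p threshold 0.05), checked on simulated data. DESeq2 1.42.0, limma 3.58.1 on mean log2(CPM + 1), other filters, thinning, a Y-linked covariate, the replicate block and leaving out each id were alternatives. Leaving out 8 cells whose ribosomal protein share exceeded 7% was chosen after seeing the data. The members and gene lists were chosen with earlier results of these data known. Named are the decay factors (1 is not reported here), chosen helicase classes, the 5 members with the smallest p or the most extreme variation in each comparison, and the 2 leading partner genes, though not each with full statistics; further members, Smg6 and the cell pairs among them, were singled out after seeing their values. Protein sequences, and a sequence for mi699a-5p, were not used here.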

Additional observations from a re-analysis of the deposited data

Results flagged for a closer look

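In groups of 4 mouse ids a value was singled out when its gap to the nearest other id took a larger part of the group's range than Dixon's 95% critical value allows. Over 162 tests, 81 members in Let7e and in mi699a-5p, 6 were singled out, where chance alone gives about 1 in 20. Let7e id 3 had 113.2 CPM of Cnot3, against 43.5 to 52.2 in the other Let7e ids, and it holds 2 cells. Let7e id 2 had 305.3 CPM of Ddx39b, against 149.2 to 162.0. In mi699a-5p, id 1 had 236.1 CPM of Exosc3, against 127.0 to 136.2, and 178.7 CPM of Ddx24, against 113.8 to 121.8. Of the 6 cells of that id, 2 are among the 8 of high ribosomal protein share. In mi699a-5p id 4, Ddx60 had 133.6 CPM, against 27.1 to 44.1, and Ddx5 had 604.1 CPM, against 716.6 to 722.2.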

How the results depend on the processing

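The count of called members was 0 in all 6 comparisons under every alternative that was run: RLE normalization, DESeq2, limma, both other filters, thinned cells, ribosomal RNA left out, duplicate columns kept apart, the Y-linked covariate, the replicate block, leaving out each mouse id (0 to 0), and leaving out the 8 cells. Same-numbered ids did not deviate together over all genes (correlations -0.126 to 0.128). With few cells per id, this check cannot tell whether the numbers pair the ids. With the replicate block 0 members were called too. In that edgeR fit 5, 3 and 4 had an unadjusted p under 0.05 in Let7d, Let7e and mi699a-5p against NC. Those unadjusted counts were unsteady: without NC id 3 they were 1 in Let7d and 1 in mi699a-5p, against 4 and 6 with it, and without the 8 cells they were 2, 4 and 9 in Let7d, Let7e and mi699a-5p. Over all omissions of 1 id they ran from 1 to 6, 2 to 6 and 1 to 8, from 0 to 4 in Let7e against Let7d and from 0 to 5 for any group; with the Y-linked covariate the count in Let7e against Let7d was 0. The 26 fold changes of members with the smallest p kept their sign in all 650 refits. They were picked by the main fit and the refits reused most of the same data, so this was largely set in advance. The fits without a filter and with duplicate columns kept apart repeat the main fit by construction. Using limma on the mean log2(CPM + 1) of the cells, which changes the tool, the scaling and the weight of cells at once, moved the members' median log2 fold change to 0.30 in Let7d against NC and to 0.20 for the let-7 mean against NC, with all genes at 0.11 and 0.07, and to -0.13 in Let7e against Let7d, with all genes at -0.08; the cause was not tested. With 3 or 4 ids a group, the 95% interval lay within a 2-fold change for 53.1% to 56.8% of members in the 3 comparisons with NC. Over all genes it did so for 29.25% to 35.4%.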
